A study of Mus musculus with 6 samples.

Results

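A set of 9 genes of the phosphoinositide 3-kinase (PI3K), AKT, mTOR and FOXO3 route were followed in cultured neonatal mouse ovaries exposed to 3-methylcholanthrene (3MC). They were taken by gene symbol from the authors' deposited comparison table, with the older symbol Frap1 read as Mtor. The 9 genes (Pik3ca, Pdpk1, Akt1, Akt2, Tsc1, Tsc2, Mtor, Rps6kb1 and Foxo3) are among 17916 in that table and have 16 of its 25697 rows. Of these 16 rows, 12 (7 genes) could be linked by their ratio to a single array probe and so have a value in every array. Of those 12 probes, 7 (5 genes) were brighter on average than the median probe and were tested. The 4 rows left without a single probe were both rows of Akt2, 1 of 4 rows of Rps6kb1 and the row of Foxo3, and these are described by the authors' ratio.

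PI3K makes the lipid PIP3 at the cell membrane when growth factor receptors such as KIT are engaged, and PDPK1 (PDK1) and AKT are recruited to that lipid. AKT holds back the TSC1-TSC2 complex, which releases mTOR complex 1 to activate the S6 kinase encoded by Rps6kb1, and it drives FOXO3 out of the nucleus. In the mouse ovary this route is known for its control of the primordial follicle: loss of Tsc1 or Tsc2 from oocytes, or of Foxo3, activates the dormant pool, and nuclear FOXO3 keeps oocytes dormant. Much of the route works through phosphorylation and location of proteins, which an RNA measurement does not read.

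The series holds 6 arrays of Swiss mouse ovaries taken on postnatal day 3 to 4 and kept in organ culture for 96 h. In 3 of them the medium held 5 µM 3MC, a polycyclic aromatic hydrocarbon and a ligand of the aryl hydrocarbon receptor (AhR), and in 3 it held the vehicle, 0.01% dimethyl sulfoxide (DMSO). The dose had been chosen in pilot work so as to be overtly toxic, per the labels. Both groups shared a medium with fetal calf serum, insulin, transferrin and selenium, basic fibroblast growth factor, leukemia inhibitory factor and stem cell factor, the KIT ligand, so that insulin and KIT ligand were supplied in 3MC and DMSO ovaries alike. The labels leave it unsaid if the 3 samples per group were separate cultures or animals, and all p-values here therefore rest on a spread between samples that may be technical. Median scanner intensity was 98.1 to 124.5 in the 3MC arrays and 107.8 to 109.1 in the DMSO arrays.

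The tissue was checked against marker genes, the threshold throughout being an adjusted p of 0.05 by limma. Of 9 oocyte markers, 8 had a tested probe, of which 2 were higher in 3MC, 4 lower and 2 not past the threshold. The oocyte transcription factor genes Nobox, Figla, Sohlh1 and Lhx8 were lower, by log2 fold changes of -0.32, -0.50, -0.32 and -0.43, and the oocyte growth factor Gdf9 (0.25) and the zona gene Zp3 (0.43) were higher. All 9 tested leukocyte markers of 10 listed were lower, with a median log2 fold change of -1.82 (range -2.48 to -1.02), and their summed normalised signal was 1437 to 1477 in 3MC arrays, against 4726 to 4901 in DMSO arrays. The tenth, the pan-leukocyte gene Ptprc, had no single linked probe, and its 2 rows had ratios of 1.017 and 1.051 in the authors' deposited table. Granulosa markers were split, with 2 higher, 1 lower and 3 not past of 6 tested, as were theca and stroma markers, with 3 higher and 1 lower of 4 tested. Of 4 endothelium markers only Tek was tested, and it did not pass. Among all linked tested probes 41.1% passed (19.7% higher and 21.5% lower), and the granulosa share of 50% is near that. With each array only centred on its median, no marker of any list passed as higher, and 9 leukocyte, 3 oocyte (Figla, Sohlh1 and Lhx8), 1 granulosa and 1 theca and stroma markers passed as lower. In whole ovaries, fewer cells of a type and less RNA per cell cannot be told apart, and the part of these shifts in the values below was not tested.

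Promoter sequence is shown for 3 members because 3MC acts on transcription through AhR, whose core binding letters are GCGTG. The windows are the 250 bases before the transcription start, from RefSeq on GRCm38.p6, written 5′ to 3′ on the gene's strand. Capitals mark GCGTG read on either strand (CACGC on the strand printed). Pik3ca is shown as the member without a match among those tested and past the threshold, Tsc1 as one of the TSC pair, and Foxo3 for its 3 matches, of which a pair overlaps. The windows are chr3:32396815-32397064 (plus strand) for Pik3ca, chr2:28640983-28641232 (plus strand) for Tsc1 and chr10:42276696-42276945 (minus strand) for Foxo3.
Pik3ca: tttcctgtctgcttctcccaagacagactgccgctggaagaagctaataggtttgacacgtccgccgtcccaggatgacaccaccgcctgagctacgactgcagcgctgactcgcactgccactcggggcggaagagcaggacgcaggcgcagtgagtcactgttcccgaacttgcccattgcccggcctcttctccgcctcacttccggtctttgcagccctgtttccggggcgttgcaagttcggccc
Tsc1: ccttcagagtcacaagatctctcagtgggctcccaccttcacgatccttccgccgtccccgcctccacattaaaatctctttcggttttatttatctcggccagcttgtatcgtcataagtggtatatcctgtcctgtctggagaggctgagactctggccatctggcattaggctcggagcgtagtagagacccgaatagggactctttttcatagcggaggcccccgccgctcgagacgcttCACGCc
Foxo3: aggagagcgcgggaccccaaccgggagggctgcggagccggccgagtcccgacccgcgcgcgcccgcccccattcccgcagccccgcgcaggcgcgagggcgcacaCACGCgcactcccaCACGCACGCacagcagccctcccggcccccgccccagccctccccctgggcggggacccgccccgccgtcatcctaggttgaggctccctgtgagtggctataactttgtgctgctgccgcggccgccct
Of 14 member promoters in the RefSeq table, 7 held GCGTG on either strand: both of Akt1, 1 of 4 of Akt2, and those of Tsc1, Tsc2, Rps6kb1 and Foxo3. Over all 32851 promoters of the same length the share was 28.2%. The FOXO core TGTTTAC, searched on both strands, was in 1 member promoter (Akt1) and in 3.17% of all promoters. Of the members past the threshold below, Tsc2 held a match and Pik3ca none. Of those tested and not past it, Tsc1 held a match and Pdpk1 and Mtor none. The Tsc2 window, which is not printed, overlaps the neighbouring gene Nthl1, while the 3 printed windows overlap no other gene. A match here is a run of letters and no measured binding site.

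The comparison of 3MC with DMSO asks which transcripts of the route differed after the toxic dose. No member reached 1.5-fold in the authors' deposited table, and 2.1% of all rows did (1.12% higher and 0.981% lower in 3MC), so none among 16 rows is near that background. Of the 7 tested probes, 3 passed the threshold, against 32.2% of all tested probes and 41.1% of those linked to a row, and all 3 were lower in 3MC. They belong to Tsc2, which encodes tuberin, the subunit of the TSC complex that inactivates RHEB, and to Pik3ca, which encodes the p110-alpha catalytic subunit of PI3K. Tsc2 was lower by 0.28 ± 0.087 and 0.23 ± 0.090 on the log2 scale at its 2 probes, and Pik3ca by 0.26 ± 0.090 (SE, n = 3 per group). All 3 calls ended with median centring, and the second Tsc2 call, at a limma adjusted p of 0.049978, was lost in 8 of 12 alternatives.

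In the authors' deposited table the ratio of 3MC to DMSO lay between 0.825 (Tsc2) and 1.055 (Mtor) over the 16 rows. A ratio below 1 stood beside 11 member rows and a ratio above 1 beside 5, where 49.6% of all rows were below 1. The median log2 ratio was -0.081 over the member rows, against 0.00088 over all rows. Only the first row of Tsc2 reached a ratio of 1.2-fold in the authors' deposited table, which 10.5% of all rows did. An unadjusted p under 0.05 stood beside 6 member rows in the authors' deposited table, against 20.2% of all rows. Of these, 5 were lower in 3MC (Pik3ca, 1 row of Pdpk1, both of Tsc2 and 1 of Rps6kb1), against 10.3% of all rows, and 1 row of Mtor was higher. In the authors' deposited table the 2 Akt2 rows had ratios of 0.982 (p = 0.497) and 1.021 (p = 0.506), and Foxo3 had 1.036 (p = 0.491). How those p-values were modelled is not given here. They were smaller than the spread of these 6 arrays in 2 groups allows (4 residual degrees of freedom) at 61.3% of 11144 linked rows checked, so they do not measure that spread alone.

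**Figure D1:**
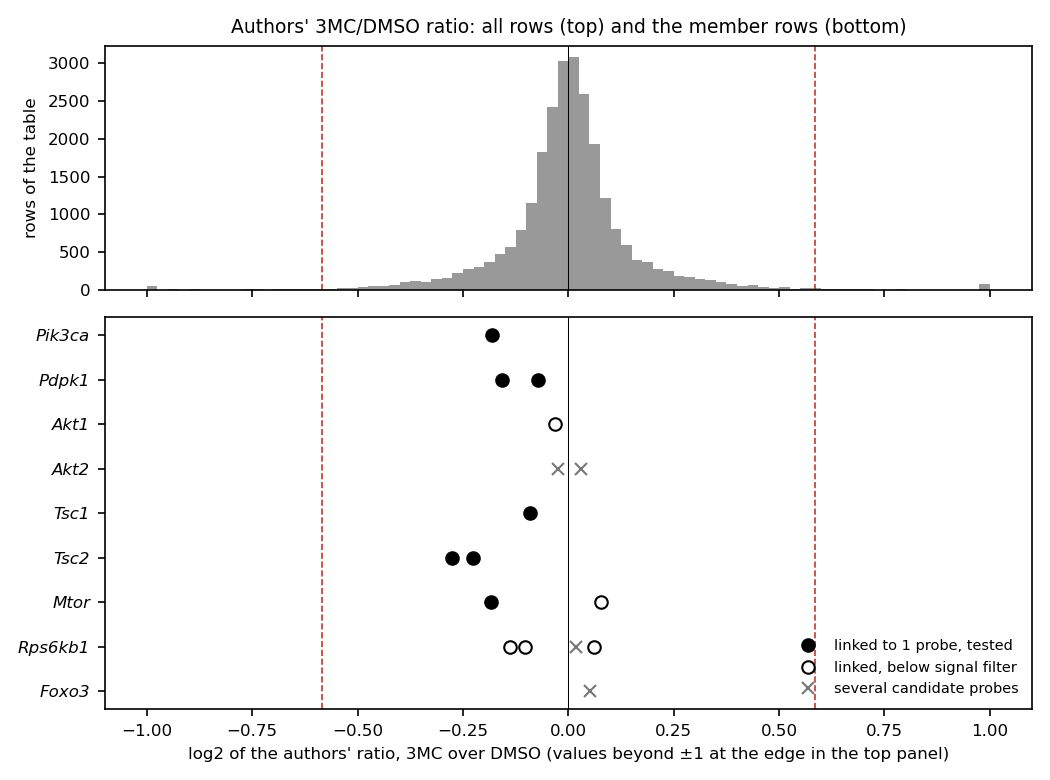
The upper panel is a histogram of log2 of the authors' 3MC over DMSO ratio for all 25697 rows, and the lower panel places the 16 member rows on the same axis, 1 line per gene. Filled points are rows with a tested probe, open points rows whose probe was below the signal filter, and crosses rows with several candidate probes. Dashed lines mark 1.5-fold, which no member row reached.

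Over the whole array, 4136 of 12848 tested probes passed an adjusted p of 0.05 (limma's moderated test with Benjamini-Hochberg adjustment), which is 32.2%. Among probes linked to a row of the table the share was 41.1% of 9478, so linked probes passed more often than tested probes at large. Of the 7 tested member probes 3 passed, all lower in 3MC. Among linked tested probes 21.5% passed as lower and 19.7% as higher, against 16.4% and 15.8% of all tested probes. A share of 3 in 7 is near the 41.1% of linked probes that passed in either direction. The log2 fold change was below 0 at all 7 member probes, against 50.4% of all tested probes, and its median was -0.20, against -0.0015 over all tested probes. An unadjusted p under 0.05 was reached at 4 of the 7, against 41.5% of all tested probes. The groups did not overlap at 6 of the 7, against 42.4% of all tested probes. Their nearest arrays almost touched at 1 Pdpk1 probe (8.4602 in 3MC, 8.4613 in DMSO) and 1 Tsc2 probe (10.072 and 10.074). The shares for a log2 fold change below 0, unadjusted p and overlap were not counted among linked probes alone, which passed more often. With each array only centred on its median, none of the 7 passed, while 8.61% of all tested probes did, and each kept its direction. Median centring gave log2 fold changes of -0.30 and -0.20 at the Pdpk1 probes, -0.32 at Mtor and -0.35 at the second Tsc2 probe. Each was over 1.5 times the value with quantile normalisation. The median over all tested probes moved down as well, from -0.0015 to -0.082. Of the probes that passed over the whole array, 49.0% were higher in 3MC, against 31.0% with median centring.

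**Figure D2:**
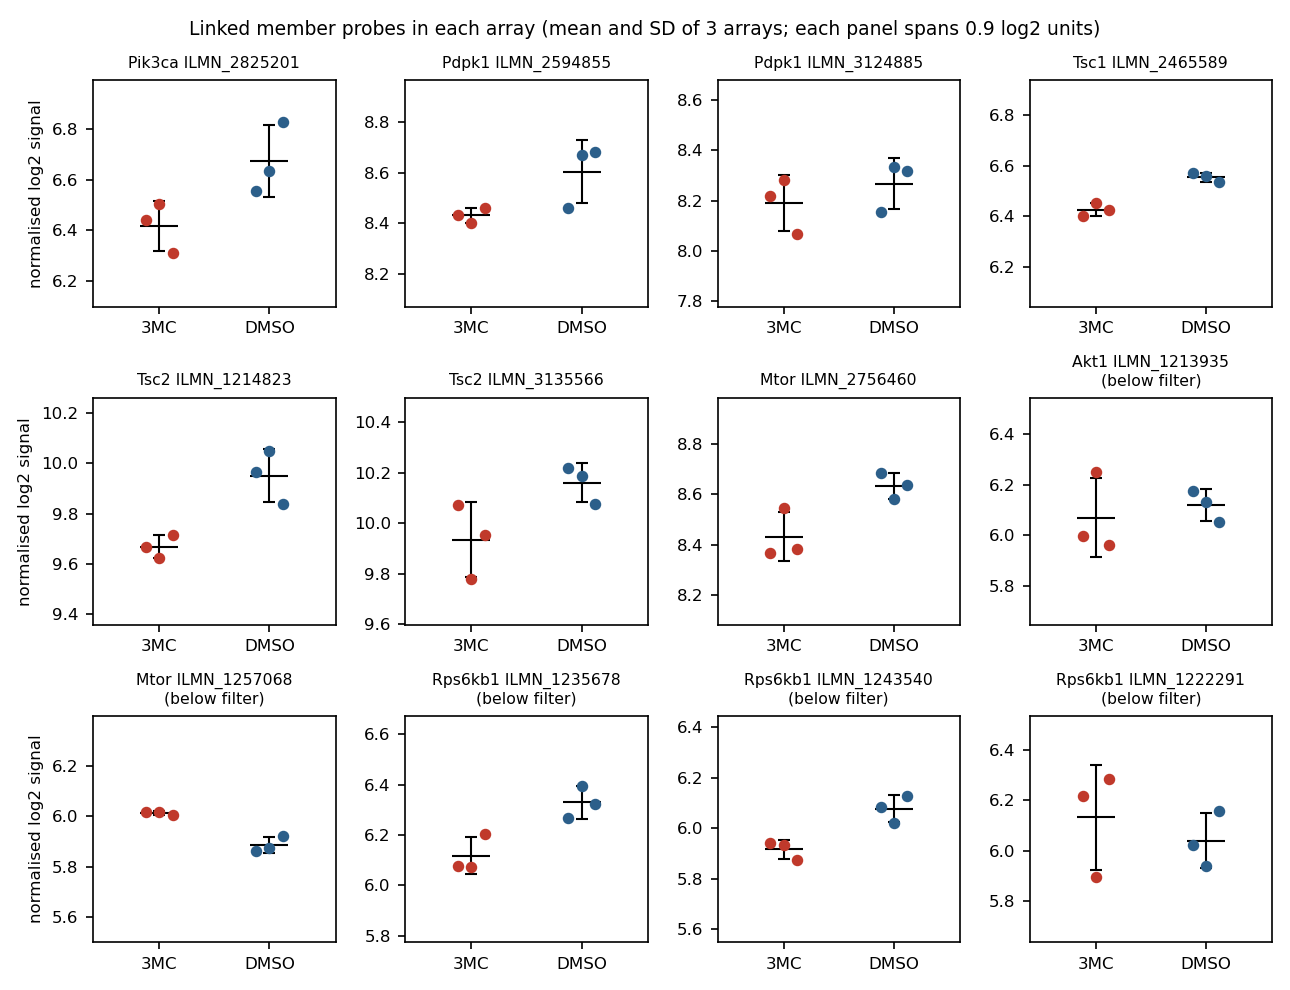
Each panel shows the normalised log2 signal of 1 linked member probe in the 3 3MC arrays (left, red) and the 3 DMSO arrays (right, blue), with the mean and SD. All panels span the same height of the log2 scale, so that distances can be compared between panels. The 3MC points lie below the DMSO points without overlap at 6 of the 7 tested probes, the exception being 1 of 2 Pdpk1 probes, and at 2 of the 5 probes below the filter, both of Rps6kb1.

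At the top of the route, Pik3ca (ILMN_2825201, chromosome 3) had normalised log2 signals of 6.44, 6.50 and 6.31 in 3MC arrays 1 to 3, against 6.56, 6.64 and 6.83 in DMSO arrays 1 to 3. After normalisation all 3MC arrays lay below all DMSO arrays, the nearest pair being 3MC array 2 and DMSO array 1. The log2 fold change of Pik3ca was -0.26 ± 0.090 (SE; 95% confidence interval -0.44 to -0.073; limma adjusted p = 0.0276). Its scanner intensity was 137.3, 108.0 and 100.0 in 3MC arrays and 126.4, 130.1 and 143.1 in DMSO arrays. Before normalisation the groups thus overlapped, with 3MC array 1 brighter than DMSO arrays 1 and 2. By mean signal 56.9% of all probes were dimmer, so the probe was only a little brighter than the median probe. The call of Pik3ca was lost in 6 of 12 alternatives. Its limma adjusted p was 0.0673 on the authors' deposited log2 values (where the log2 fold change was -0.18), 0.0512 when no background was corrected and 0.303 with median centring. Leaving out 3MC replicate 1, 3MC replicate 3 or DMSO replicate 3 gave a limma adjusted p of 0.0507, 0.122 and 0.201.

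Pdpk1, which encodes the kinase that phosphorylates AKT in its activation loop, had a pair of tested probes. The first (ILMN_2594855) read 8.43, 8.40 and 8.46 in 3MC arrays, against 8.46, 8.67 and 8.68 in DMSO arrays. DMSO array 1 sat just above the 3MC arrays and the other DMSO arrays well above them. Its log2 fold change was -0.17 ± 0.087 (SE; 95% confidence interval -0.35 to 0.0037; limma adjusted p = 0.129). The second (ILMN_3124885, chromosome 17) read 8.22, 8.28 and 8.07 in 3MC arrays, against 8.15, 8.33 and 8.32 in DMSO arrays. Here the groups overlapped, and the log2 fold change was -0.079 ± 0.089 (SE; 95% confidence interval -0.26 to 0.10; limma adjusted p = 0.539). It was -0.018 without 3MC replicate 3, -0.046 without DMSO replicate 2, -0.13 without 3MC replicate 2 and -0.14 without DMSO replicate 1. The rows of these probes carry different RefSeq accessions.

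Akt1, the kinase at the centre of the route, had 1 linked probe (ILMN_1213935, chromosome 12), which was below the signal filter. It read 6.00, 6.25 and 5.96 in 3MC arrays, against 6.18, 6.13 and 6.05 in DMSO arrays. The groups overlapped, with both the highest and the lowest value in 3MC arrays, and the log2 fold change was -0.051. The 2 rows of Akt2, the paralogue best known for insulin action, matched 2 and 3 candidate probes. Over the candidates of the first row the log2 fold change was -0.043 to -0.039, and over those of the second 0.037 to 0.052. No candidate passed the test, also when probes of every brightness were entered (lowest limma adjusted p = 0.798). The candidates were picked for a ratio equal to that of the row, so this is no separate test of Akt2.

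The TSC complex is the brake on mTOR complex 1, and Tsc2 held the members' lowest ratios. Its first probe (ILMN_1214823, chromosome 17) read 9.67, 9.62 and 9.71 in 3MC arrays, against 9.96, 10.05 and 9.84 in DMSO arrays. The groups were apart, with means of 9.67 ± 0.045 in 3MC and 9.95 ± 0.11 in DMSO (SD, n = 3 each). The log2 fold change was -0.28 ± 0.087 (SE; 95% confidence interval -0.46 to -0.11; limma adjusted p = 0.0117), so that signal was 1.22-fold higher in DMSO. The call stood in 10 of 12 alternatives. It ended with median centring, at -0.40 and a limma adjusted p of 0.138, and when DMSO replicate 2 was left out, at -0.23 and an adjusted p of 0.0744.

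The second Tsc2 probe (ILMN_3135566), listed under another RefSeq accession, read 10.07, 9.78 and 9.95 in 3MC arrays, against 10.22, 10.19 and 10.07 in DMSO arrays. 3MC array 1 and DMSO array 3 nearly touched, and 3MC array 2 was the lowest. The log2 fold change was -0.23 ± 0.090 (SE), just past the threshold. Over the 12 alternatives it lay between -0.35 with median centring and -0.15 without 3MC replicate 2. In the authors' deposited table the ratios of the Tsc2 rows were 0.825 (p = 0.0112) and 0.855 (p = 0.0226), and 9.62% of all rows had a change larger than the first.

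Tsc1, which encodes hamartin and stabilises tuberin, had 1 tested probe (ILMN_2465589, chromosome 2). It read 6.40, 6.45 and 6.43 in 3MC arrays, against 6.57, 6.56 and 6.54 in DMSO arrays. After normalisation each group was tight and the groups did not overlap. Before it, scanner intensity was 133.5, 105.2 and 104.3 in 3MC arrays and 127.5, 124.8 and 122.0 in DMSO arrays. There 3MC array 1 was the brightest, and by mean signal 55.8% of all probes were dimmer than this one. The log2 fold change of -0.13 ± 0.084 (SE; 95% confidence interval -0.30 to 0.041) did not pass (limma adjusted p = 0.252). The moderated test takes most of its error from all probes pooled (30.8 prior degrees of freedom against 4 of the probe's own), so the tight values of Tsc1 count for little in it.

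Mtor, the kinase shared by both mTOR complexes, was read by a pair of linked probes. The tested probe (ILMN_2756460, chromosome 4) read 8.37, 8.55 and 8.38 in 3MC arrays, against 8.68, 8.58 and 8.64 in DMSO arrays. The groups were apart, by little between 3MC array 2 and DMSO array 2. Its log2 fold change of -0.20 ± 0.086 (SE; 95% confidence interval -0.38 to -0.026) did not pass (limma adjusted p = 0.0725), and it passed only without 3MC replicate 2 (-0.26, adjusted p = 0.0409). The other probe (ILMN_1257068), below the filter, read 6.01, 6.02 and 6.00 in 3MC arrays, against 5.86, 5.87 and 5.92 in DMSO arrays. Its groups were apart with 3MC above DMSO (log2 fold change 0.13), near the floor of the scanner signal (87.7 to 103.9 in 3MC arrays and 86.9 to 90.1 in DMSO arrays).

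Rps6kb1, which encodes the S6 kinase that mTOR complex 1 activates, had 3 linked probes, all below the filter. ILMN_1235678 read 6.08, 6.07 and 6.21 in 3MC arrays, against 6.27, 6.40 and 6.32 in DMSO arrays, a log2 fold change of -0.21 with groups apart. ILMN_1243540 read 5.94, 5.93 and 5.87 in 3MC arrays, against 6.09, 6.02 and 6.13 in DMSO arrays, a log2 fold change of -0.16 with groups apart. The third, ILMN_1222291, read 6.21, 5.90 and 6.29 in 3MC arrays, against 6.02, 5.94 and 6.16 in DMSO arrays, and here the groups overlapped around a log2 fold change of 0.092. In the authors' deposited table the 4 rows of Rps6kb1 had ratios of 0.909 (p = 0.00794), 0.931 (p = 0.0555), 1.013 (p = 0.726) and 1.042 (p = 0.365). Of the 5 member probes below the filter, 3 had groups that did not overlap, against 12.3% of all probes below the filter, linked or not. When probes of every brightness were tested, of which 16.1% passed, none of these 5 did (lowest limma adjusted p = 0.0740).

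Foxo3, which encodes the transcription factor that AKT drives out of the nucleus, matched 4 candidate probes by its ratio. Over these the log2 fold change was 0.063 to 0.082, with scanner intensities of 84.5 to 221.7 in 3MC arrays and 86.4 to 216.1 in DMSO arrays. None of them passed (lowest limma adjusted p = 0.618 with probes of every brightness entered). They were picked for a ratio equal to that of the row, so this adds little to the ratio itself and is no separate test of Foxo3.

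**Figure D3:**
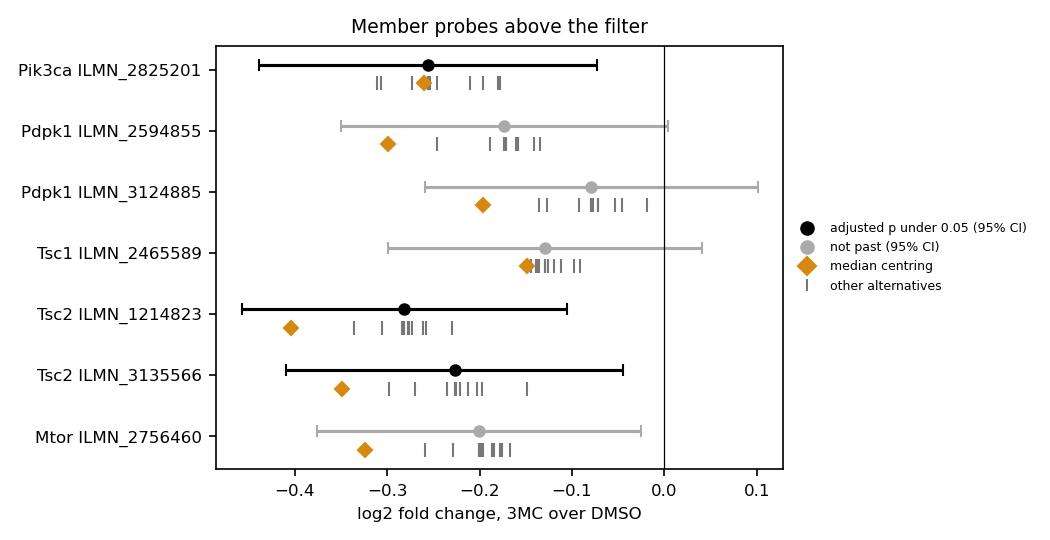
Points are log2 fold changes of 3MC over DMSO at the 7 tested member probes with 95% confidence intervals, black where the adjusted p was under 0.05 and grey where it was not. The orange diamond gives the same value with median centring and the grey ticks the other alternatives. Every value lies below 0, and median centring moved 6 of the 7 points to lower values by more than it moved Pik3ca.

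Around the members, 91 genes of the wider route were read, of which 86 are in the table and 58 had a linked, tested probe. By the probe of highest mean signal, 13 genes were higher in 3MC, 15 lower and 30 not past the threshold. The share past it was 48.3%, against 41.1% of linked tested probes (19.7% higher and 21.5% lower), with a median log2 fold change of -0.11. The list and its groups were chosen with earlier results of these data known. This share and the counts by group below are therefore descriptions, to be read beside the same 41.1%. Kit, Erbb2, Phlpp2, Prkaa1 and Lamtor5 were not analysed here. In the authors' deposited table Phlda3, Pik3r3, Sesn2 and Gadd45a were 1.5-fold or more higher and Pik3cg 1.5-fold or more lower, and these 5 genes are also in the authors' own selection. All 28 genes kept their direction in all 12 alternatives.

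Phlda3, whose product competes with AKT for membrane lipid and which p53 induces, read 10.80, 10.59 and 10.76 in 3MC arrays, against 8.10, 8.06 and 8.10 in DMSO arrays. Its log2 fold change was 2.63 ± 0.086 (SE; limma adjusted p = 2.55e-23), and both of its probes rose. Trib3, a pseudokinase that binds AKT, rose by 0.44 ± 0.087 (SE; limma adjusted p = 1.49e-04), and Trib2 did not pass (-0.12, adjusted p = 0.319). Of the 3 AKT inhibitors listed, 2 rose, where 19.7% of linked tested probes passed as higher. That group was chosen with earlier results of these data known, so the count is a description. None of the 3 tested genes read among PDK1, AKT and related kinases (Pdpk1, Sgk1 and Sgk3) passed, with log2 fold changes of -0.20 to -0.056.

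The subunits of PI3K did not move together. Pik3cg, the p110-gamma catalytic subunit that is abundant in leukocytes, read 6.37, 6.47 and 6.15 in 3MC arrays, against 7.31, 7.33 and 7.62 in DMSO arrays. It was lower by 1.09 ± 0.096 on the log2 scale (SE; limma adjusted p = 1.85e-11). The 9 tested leukocyte markers were lower in the same arrays (median -1.82), and their part in the Pik3cg value was not tested. Pik3cd, the other catalytic subunit known from leukocytes, overlapped between groups (-0.087, limma adjusted p = 0.529), and Pik3cb, the p110-beta subunit, did not pass (-0.23, limma adjusted p = 0.0534). The regulatory subunit Pik3r3 read 9.97, 9.86 and 10.01 in 3MC arrays, against 9.25, 9.26 and 9.34 in DMSO arrays, a rise of 0.67 ± 0.086 (SE; limma adjusted p = 1.06e-07). Among receptors and adaptors, Egfr rose (0.47 ± 0.085, limma adjusted p = 4.13e-05, with all 3 tested probes past the threshold). Its row without a linked probe had a ratio of 0.972 in the authors' deposited table (p = 0.628). The adaptor Gab1 (-0.35, limma adjusted p = 0.00302) and the receptor Igf1r (-0.24, adjusted p = 0.0336) fell.

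Among stress inhibitors of mTOR complex 1, Sesn2, a leucine-sensing sestrin, read 7.97, 7.82 and 7.79 in 3MC arrays, against 6.81, 6.52 and 6.79 in DMSO arrays. It rose by 1.16 ± 0.091 on the log2 scale (SE; limma adjusted p = 1.27e-12). Ddit4 (REDD1), which acts through the TSC complex, rose by 0.44 ± 0.090 (limma adjusted p = 2.55e-04). Sesn1 went the other way: its probe of higher signal read 9.60, 9.70 and 9.41 in 3MC arrays, against 10.25, 10.02 and 9.96 in DMSO arrays, a fall of 0.51 ± 0.093 (SE; limma adjusted p = 5.48e-05). The other tested probe of Sesn1 did not pass. Of the 6 tested stress inhibitors, 2 rose, 2 fell and 2 did not pass, where 41.1% of linked tested probes passed.

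Within the mTOR complexes, Deptor, an inhibitor bound to mTOR, fell (-0.43 ± 0.095, limma adjusted p = 5.36e-04), as did Mapkap1, a subunit of mTOR complex 2 (-0.23, adjusted p = 0.0370). The other row of Mapkap1, without a linked probe, had a ratio of 1.046 in the authors' deposited table (p = 0.268). Prr5, another subunit of complex 2, rose (0.33, limma adjusted p = 0.00241), and so did Akt1s1 (PRAS40), an AKT substrate that inhibits complex 1 (0.25, adjusted p = 0.0295). Downstream of mTOR, the translation repressor Eif4ebp1 (-0.25, limma adjusted p = 0.0282) and Rps6, the ribosomal protein that S6 kinase phosphorylates (-0.24, adjusted p = 0.0322), fell, while Eif4ebp2 rose (0.29, adjusted p = 0.0212). Of 6 tested genes of the RAG GTPases and Ragulator, which hold mTOR complex 1 on the lysosome, Lamtor4 fell (-0.25, limma adjusted p = 0.0275) and 5 did not pass. Of 4 tested AKT substrates, Gsk3a, the glycogen synthase kinase 3 alpha isoform, rose (0.26, limma adjusted p = 0.0313) and 3 did not pass.

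Genes known as FOXO targets were split, with 3 higher, 3 lower and 2 not past of 8 tested. Among all linked tested probes 41.1% passed. Gadd45a, a growth arrest gene that p53 also induces, read 10.08, 10.05 and 10.32 in 3MC arrays, against 9.49, 9.51 and 9.39 in DMSO arrays. It rose by 0.69 ± 0.089 (SE; limma adjusted p = 1.3e-07), at both of its probes. The transcriptional repressor Bcl6 rose (0.31, limma adjusted p = 0.00822), and the mitochondrial superoxide dismutase Sod2 (-0.29, adjusted p = 0.0112) and the cyclin Ccng2 (-0.25, adjusted p = 0.0331) fell. Foxo1, the FOXO factor with a tested probe closest to the threshold, did not pass (-0.22, limma adjusted p = 0.0554), and neither did Foxo6 (-0.057, adjusted p = 0.659).

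With median centring, 6 of the 28 calls stood: Phlda3, Sesn2, Gadd45a and Pik3r3 higher, and Pik3cg and Sesn1 lower. These 6 also stood in the other 11 alternatives. A further 6 (Gab1, Egfr, Trib3, Deptor, Prr5 and Ddit4) were lost with median centring alone. The remaining calls stood in 10 (Bcl6) down to 2 (Sesn3) of the 12 alternatives. Among them, Ccng2 kept its call in 5, Gsk3a in 6, and Igf1r, Mapkap1 and Eif4ebp1 in 7 each.

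**Figure D4:**
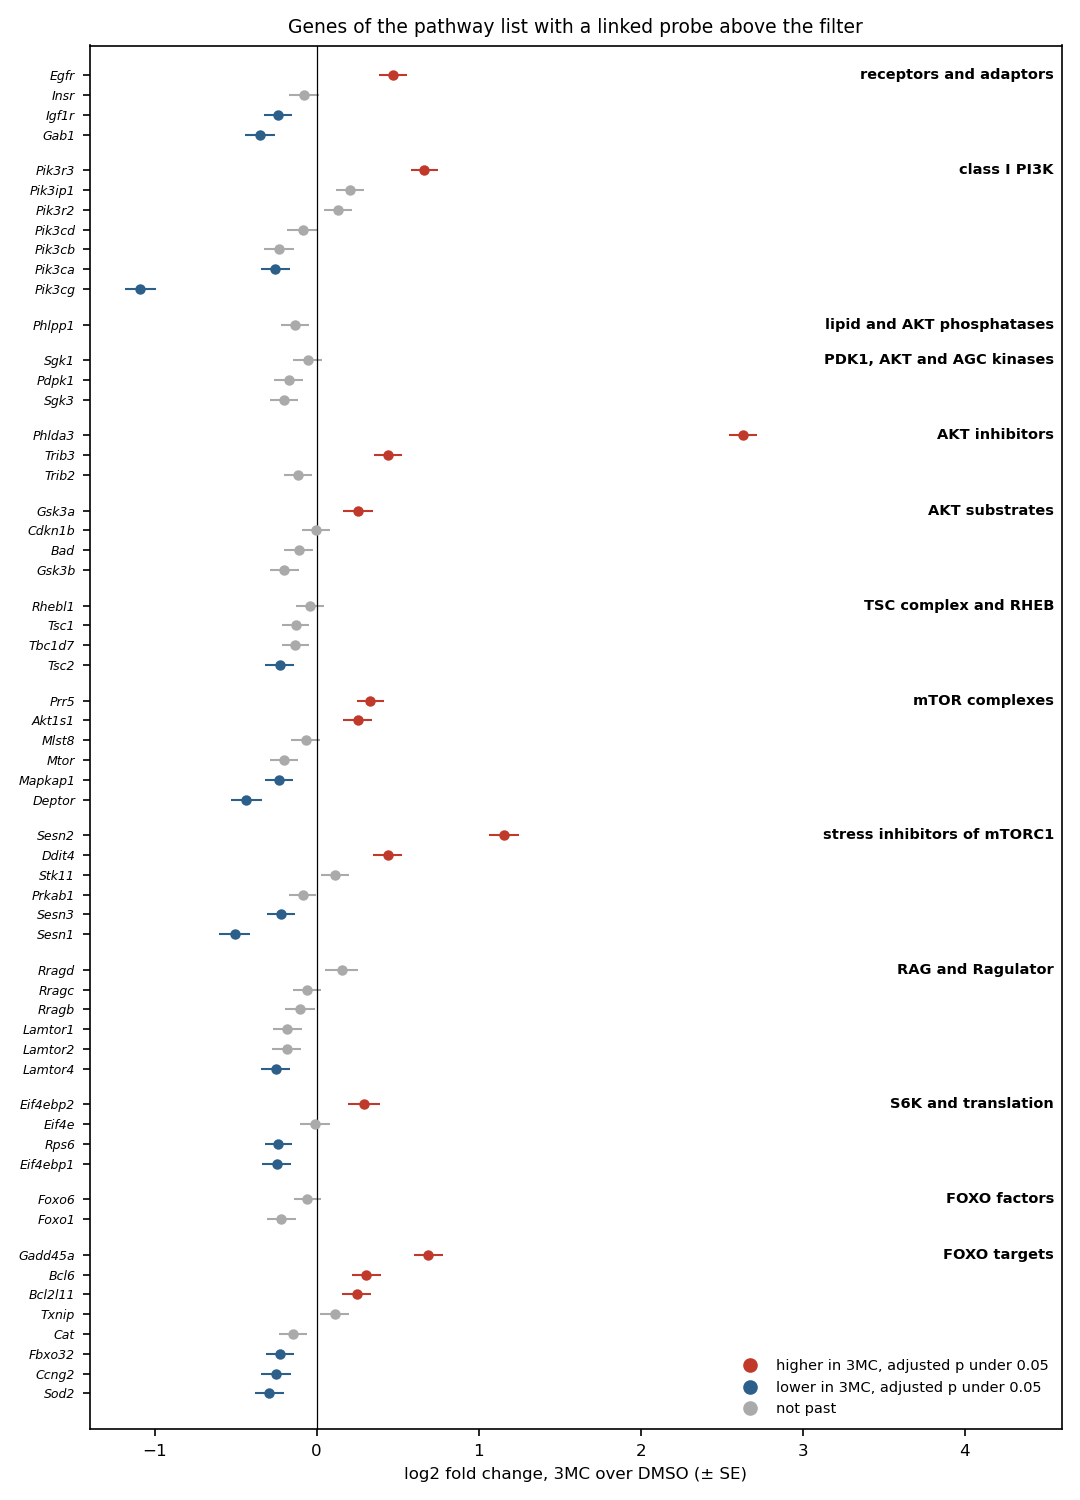
Each line is 1 of the 58 genes with a linked, tested probe, grouped by its place in the route, and shows the log2 fold change of 3MC over DMSO with its SE. Red points were higher in 3MC and blue points lower at an adjusted p under 0.05, and grey points did not pass. Phlda3 at 2.63 and Pik3cg at -1.09 are the extremes, and the members Pik3ca, Pdpk1, Tsc1, Tsc2 and Mtor lie between -0.26 and -0.13.

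The probes whose pattern over the 6 arrays was most like each tested member were listed by Pearson correlation among the linked, tested probes of other genes, as a description. Pik3ca was followed most closely by Vps29 (r = 0.998) and Nans (r = 0.996), and the first Pdpk1 probe by Nt5e (r = 0.997) and Atp6ap2 (r = 0.992). For the second Pdpk1 probe these were Epn2 (r = 0.985) and Emc6 (r = 0.980), and for Tsc1 Ccdc107 (r = 0.997) and Adgrl3 (r = 0.996). The first Tsc2 probe was followed by Nmral1 (r = 0.993) and Rnf166 (r = 0.991), and the second by Park7 (r = 0.991) and Fah (r = 0.991). The tested Mtor probe was followed by Mrpl54 (r = 0.999) and Ercc2 (r = 0.996). The number of probes above r = 0.95 was 393 for Tsc1, 130 and 58 for the Tsc2 probes, 99 for Mtor, 36 and 12 for the Pdpk1 probes and 34 for Pik3ca. Each member probe was compared with 9476 or 9477 others, and no background for the highest r was counted. A high r leaves the size of change open. Vps29 had a log2 fold change of -0.064 (limma adjusted p = 0.604), beside -0.26 for Pik3ca. Ccdc107 had -0.48 (limma adjusted p = 3.66e-05), beside -0.13 for Tsc1.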

How the data were processed

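RNA of 6 ovary samples was hybridised to Illumina Mouse Ref-8 v2 BeadChips, 3 with 3MC and 3 with DMSO, grouped by the sample titles. The authors deposited scanner intensity for 25697 probes, with no detection or control columns, and a table of log2 values of the same probes, whose sorted columns differ by at most 0.0067. The submitters' processing notes name lumi, with no role given. The comparison sheet that the authors deposited holds, by its headers, gene symbols with the ratio and fold change of 3MC over DMSO and an unadjusted p-value. The fold change the authors deposited is a signed score, minus the inverse of the ratio where that is below 1.

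Rows and probes share no identifier. A row was linked to a probe where its ratio equalled that of the deposited log2 values rounded to 6 significant digits, for that row and that probe alone. This linked 16002 rows. The planned link, within 5e-05 of unrounded values, gave 2656 rows and only 1 member row, and the exact link was chosen after seeing that. Of the 2633 rows linked both ways, 2633 had the same probe. As a check, the spread of the linked probe was larger than the authors' p-value allows at 5.15%, 0.736% and 0% of 11144 rows if their model had 8, 9 or 10 residual degrees of freedom, against 20.0%, 15.9% and 12.7% with the next probe in order of ratio. With 4, which 6 arrays in 2 groups leave, it was 61.3%, against 55.4%. The true number is not known, so the check rests on an assumption. Symbols were updated through RefSeq (GRCm38.p6) by accession, which matched 23739 rows.

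Intensities were corrected with normexp (offset 50), set to log2 and quantile normalised in limma 3.58.1 (R 4.3.3). Probes with a mean signal above the median probe were kept (12848), and groups were compared with lmFit and eBayes, two-sided, Benjamini-Hochberg over kept probes, threshold 0.05. The script was tested on simulated data. Alternatives were other scalings, no filter, a replicate block, other links and leaving out each replicate. Of the wider list, up to 12 genes per direction by size of log2 fold change and those 1.5-fold in the authors' table were named, and for each member the 2 most correlated probes. Some genes of the wider list are not reported here and were left out of its counts. The members and all lists were chosen with earlier results of these data known. The number of arrays limits the precision. RefSeq promoters matched all 9 genes.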

Additional observations from a re-analysis of the deposited data

How the results depend on the processing

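Over the whole array, 4136 probes passed (2028 higher, 2108 lower), against 1106 (343 higher, 763 lower) with median centring, 3339 to 3607 when 1 replicate was left out, and 3986 with the replicate block. Same-numbered samples correlated in their deviations at -0.079, -0.096 and 0.084, and differently numbered ones at -0.068 to 0.14. No pairing by number was seen, but 3 arrays per group cannot exclude it. Of the members, 3 probes passed, against 0 with median centring, 2 with the replicate block, and 1 to 3 when 1 replicate was left out (1 without 3MC replicate 3, 1 without DMSO replicate 2). With rows linked within 5e-05, 0.0001 and 2e-05 of unrounded values, 1, 0 and 1 member probes passed, because only 1, 0 and 2 were linked and tested. Of the pathway genes, 28 passed, against 6 (4 higher, 2 lower) with median centring, 25 with the replicate block, and 18 to 24 when 1 replicate was left out (18 without 3MC replicate 3, 18 without DMSO replicate 1). The links within 5e-05 and 0.0001 gave 15 and 9 pathway genes, of 19 and 10 tested. No member row was 1.5-fold in the authors' deposited table and 1 was 1.2-fold. Apart from the link, the cause of these shifts was not tested. No member probe changed direction in the 12 alternatives. Pik3ca kept its call in 6, the Tsc2 probes in 10 and 4, and Mtor gained one in 1. The 7 tested members' log2 fold changes of -0.28 to -0.079 stood against standard errors of 0.084 to 0.090. The other 5 linked member probes, with scanner intensities of 83.6 to 117.8 where the median of all probes was 107.4, were below the filter.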

Other observations

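Tsc2 lies end to end with Pkd1, which encodes polycystin-1, on mouse chromosome 17, and their ends overlap in the RefSeq table. Pkd1 was looked at after the values of Tsc2 were seen. Its linked probe (ILMN_2827036) read 7.25, 7.09 and 7.23 in 3MC arrays, against 7.68, 7.63 and 7.74 in DMSO arrays, with no overlap between the groups. The log2 fold change of Pkd1 was -0.49 ± 0.086 (SE; limma adjusted p = 2.89e-05). Median centring gave -0.57, with a limma adjusted p of 0.0254. In the authors' deposited table the ratio of Pkd1 was 0.755, and that of Nthl1, the base excision repair gene on the other side of Tsc2, was 1.002 (p = 0.984).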
